A study of Mus musculus with 20 samples.

Results

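The 10 Notch pathway genes described here were the receptors Notch1, Notch2 and Notch3, the ligands Dll1, Dll3, Dll4, Jag1 and Jag2, and the target genes Hes1 and Hes5, out of 21883 protein-coding genes of the mouse. They form a named list, and peaks were assigned to a gene when they overlapped its body or the 20 kb on either side by at least 1 bp, on genome build mm10. All libraries came from C57BL/6J embryos at E11.5 (embryonic day), from tissue labelled CVG, the usual short form for the cochleovestibular ganglion of the inner ear. The labels give no genotype and no treatment. They give every group the same strain, age and tissue and tell the groups apart by antibody. Whether the groups also differ in other ways is not stated. CUT&Tag, in which an antibody tethers a transposase that releases nearby DNA for sequencing, was run against the neuronal homeodomain factors ISL1 and POU4F1 and against 3 histone marks. Peak lists of 14 libraries were used: ISL1_26 (n = 1) and ISL1_70 (n = 3), treated as 4 ISL1 libraries, POU4F1 (n = 2), H3K4me3 (n = 2), H3K27ac (n = 3) and H3K27me3 (n = 3). The 6 IgG samples were not analysed here. No label says whether replicates came from separate dissections, so the spread between them may be technical.

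In Notch signalling, a ligand of the Delta-like or Jagged family on one cell binds a Notch receptor on its neighbour, and the cleaved intracellular part of the receptor joins the DNA-binding protein RBPJ to switch on genes such as the Hes repressors. In the developing inner ear the pathway is known for setting aside the prosensory tissue, where Jag1 acts, and for limiting how many cells become neuroblasts, where Dll1 acts by lateral inhibition. H3K4me3 marks gene starts, H3K27ac marks active starts and enhancers, and H3K27me3 marks chromatin held by Polycomb repressors.

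Several lists stood apart. The peaks of H3K4me3 replicate 1 shared a Jaccard index (shared over combined bases) of 0.742 with H3K27me3 replicate 2 and 0.0360 with H3K4me3 replicate 2, so it was set beside H3K27me3 where peaks were broad. H3K27ac replicate 1 held 8855 peaks against 106628 and 168144 in the other H3K27ac lists. H3K27me3 replicate 1 held peaks with a median width of 350 bp and a median −log10 q of 1.09, near the end of the list. The lists carry no read depth, so a missing peak means that none was called in that library. The lists describe whole ganglia: marks on different cells and marks on the same chromatin cannot be told apart. Among cell type markers, a start-site H3K27ac region called in at least 2 libraries was present at 7 of 8 neuronal genes, 3 of 5 glial and neural crest genes, 2 of 5 otic epithelium genes, 1 of 5 endothelial, 1 of 5 mesenchymal, 0 of 4 mural and 0 of 4 blood genes (44.5% of all genes). A start-site H3K27me3 region was present, in the same order, at 7, 4, 4, 1, 5, 2 and 1 of them (19%), and 1 of the 8 neuronal genes had H3K27ac without H3K27me3.

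A region was called replicated when merged peaks came from at least 2 libraries of a target. By that rule 7 of the 10 genes had an ISL1 region (45.6% of all genes did), and none had a POU4F1 region (2.45%) or a region shared by the factors (0.603%). All 10 had an H3K27ac region (69.8%), 9 had an H3K27me3 region (37.4%) and 8 had an H3K4me3 region (13.6%), the last of which rested on H3K4me3 replicate 1. Longer windows collect more peaks: an ISL1 region was found at 26.5% of genes with bodies under 5 kb, 43.2% of those of 5 to 30 kb and 56.6% of those of 30 to 150 kb. Without ISL1_70 replicate 1 the ISL1 count was 3 (Notch1, Notch3 and Jag1, with 26.1% of all genes), and without H3K27me3 replicate 3 the H3K27me3 count was 5 (18.8%). Without H3K27ac replicate 2 or replicate 3 the H3K27ac count was 4 or 5 (34.5% and 35.6% of all genes), because the short replicate 1 list then had to supply the second call.

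**Figure D1:**
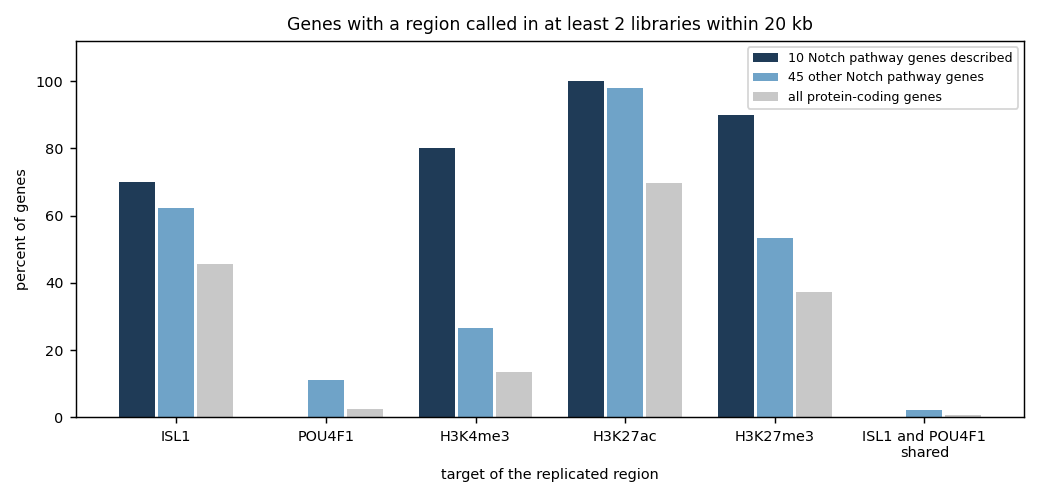
Percent of genes (vertical axis) with a region called in at least 2 libraries within the gene body or 20 kb on either side, by target (horizontal axis), for the 10 genes described, 45 other Notch pathway genes and all 21883 protein-coding genes. The 10 genes stand at 70% for ISL1, 0% for POU4F1 and 90% for H3K27me3, against 45.6%, 2.45% and 37.4% of all genes.

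The most common state at the gene start was both marks. Within 1 kb of the start, 6 of the 10 genes had replicated H3K27ac and replicated H3K27me3 regions (6.42% of all genes): Notch1, Notch2, Dll1, Dll3, Jag2 and Hes1. Notch3 and Jag1 had replicated H3K27ac without replicated H3K27me3 (38.1%), and Dll4 and Hes5 had H3K27me3 without H3K27ac (12.6%). Single H3K27me3 libraries still had a peak within 1 kb of the start, replicate 3 at Notch3 and replicate 1 at Jag1. RefSeq gave no strand for Hes1, so either end of that gene counted as its start. The count with both marks was 2 without H3K27ac replicate 2 (Notch1 and Dll1, 2.24% of all genes) and 3 without H3K27ac replicate 3 (Notch1, Dll1 and Jag2, 2.41%). The count with H3K27me3 alone was 6 without H3K27ac replicate 2 (16.8% of all genes) and 5 without replicate 3 (16.6%). It was 1 (Dll4) without H3K27me3 replicate 2 or replicate 3 (6.64% and 6.33%). The count with H3K27ac alone was 1 (Jag1) without H3K27ac replicate 2 or replicate 3 (17.9% and 18.9%). It was 4 without H3K27me3 replicate 3, near the share of all genes (41.5%).

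The starts were also read in the fuller lists alone. H3K27me3 replicates 2 and 3 both had a peak at the start of 7 genes (17.6% of all genes), and in 5 of them, Notch1, Dll1, Jag2, Hes1 and Hes5, H3K4me3 replicate 2 had one as well (5.38%). In 4 of those, Notch1, Dll1, Jag2 and Hes1, H3K27ac replicates 2 and 3 also had one (3.08%). Jag1 was the member with H3K4me3 replicate 2 at the start and neither H3K27me3 replicate 2 nor 3 (30.3%). H3K27ac replicates 2 and 3 had a peak at the starts of all members except Dll4 and Hes5, 8 in all (42.9%).

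The 250 bases upstream of 6 gene starts are shown because they carry the different combinations of marks and the few factor peaks at starts; they come from RefSeq (assembly GRCm38.p6, the same chromosome sequences as mm10) and are written 5′ to 3′ in the direction of transcription. Capitals mark matches, on either strand, to the RBPJ core TGGGAA, the N-box CACNAG bound by Hes proteins, the E-box CAGNTG of proneural factors, and the homeodomain core TAATG. Notch1 (chr2:26503823-26504072, minus strand) overlapped peaks of ISL1_70 replicate 2, both H3K4me3 libraries, H3K27ac replicates 1 and 2 and all 3 H3K27me3 libraries. Jag1 (chr2:137116521-137116770, minus strand) overlapped peaks of H3K4me3 replicate 2, H3K27ac replicates 1 and 3 and H3K27me3 replicate 1. Dll3 (chr7:28301786-28302035, minus strand) overlapped a peak of ISL1_70 replicate 1, H3K4me3 replicate 1, H3K27ac replicates 2 and 3 and H3K27me3 replicates 2 and 3. Dll4 (chr2:119325534-119325783, plus strand) and Hes5 (chr4:154960673-154960922, plus strand) lay inside H3K27me3 peaks of replicates 2 and 3, overlapped H3K4me3 replicate 1 and overlapped no H3K27ac, ISL1 or POU4F1 peak, and Hes5 also overlapped a peak of H3K4me3 replicate 2. The start that RefSeq's promoter table gives for Hes5 lies inside the gene span of the gene table. Nrarp (chr2:25180508-25180757, plus strand), a pathway inhibitor outside the 10 genes, overlapped peaks of ISL1_26 replicate 1, ISL1_70 replicate 1, both POU4F1 libraries, H3K4me3 replicate 2, all 3 H3K27ac libraries and H3K27me3 replicate 3.
Notch1: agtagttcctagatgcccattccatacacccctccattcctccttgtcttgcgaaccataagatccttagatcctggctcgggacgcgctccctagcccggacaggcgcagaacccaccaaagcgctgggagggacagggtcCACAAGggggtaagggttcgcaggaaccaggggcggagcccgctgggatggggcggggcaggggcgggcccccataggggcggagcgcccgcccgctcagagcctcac
Jag1: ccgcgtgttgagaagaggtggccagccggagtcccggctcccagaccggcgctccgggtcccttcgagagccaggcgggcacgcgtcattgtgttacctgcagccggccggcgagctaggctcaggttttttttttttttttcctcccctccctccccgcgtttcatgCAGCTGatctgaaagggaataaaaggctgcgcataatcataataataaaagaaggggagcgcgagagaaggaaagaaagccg
Dll3: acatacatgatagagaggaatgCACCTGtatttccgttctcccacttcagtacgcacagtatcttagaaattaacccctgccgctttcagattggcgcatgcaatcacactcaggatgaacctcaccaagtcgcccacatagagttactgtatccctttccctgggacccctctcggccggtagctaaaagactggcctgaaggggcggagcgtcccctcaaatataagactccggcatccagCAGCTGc
Dll4: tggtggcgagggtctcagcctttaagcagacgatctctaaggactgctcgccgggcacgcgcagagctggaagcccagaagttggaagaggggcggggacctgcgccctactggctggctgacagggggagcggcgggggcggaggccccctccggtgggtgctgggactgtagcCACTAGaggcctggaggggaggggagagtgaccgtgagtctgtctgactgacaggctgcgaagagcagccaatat
Hes5: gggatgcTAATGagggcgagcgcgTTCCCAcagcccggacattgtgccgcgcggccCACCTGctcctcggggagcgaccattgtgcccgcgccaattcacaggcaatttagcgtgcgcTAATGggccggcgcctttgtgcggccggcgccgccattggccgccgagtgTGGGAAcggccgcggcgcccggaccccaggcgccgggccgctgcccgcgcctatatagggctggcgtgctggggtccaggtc
Nrarp: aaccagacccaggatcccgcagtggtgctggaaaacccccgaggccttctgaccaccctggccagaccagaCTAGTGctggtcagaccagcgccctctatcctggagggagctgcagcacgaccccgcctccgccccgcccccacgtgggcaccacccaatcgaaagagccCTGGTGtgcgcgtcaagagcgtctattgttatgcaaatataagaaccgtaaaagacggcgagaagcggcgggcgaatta

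Of 10 start sites with a RefSeq sequence for 9 of the genes (Dll1 has 2, Hes1 none in the table used), 1 held the RBPJ core, the Hes5 promoter, against 20.9% of 21262 promoters of the same length. Hes5 carried it at 2 places, positions −226 to −221 and −82 to −77 from the start, on opposite strands. The N-box was found in 4 of the 10 (35.9% of all promoters), the E-box in 4 (42.0%) and TAATG in 3 (21.0%). The POU-type sequence ATTAAT was found in none of the 10 (3.76%). These are matches of letters and do not show binding.

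Among the receptors, Notch1 (chr2:26457902-26503822) carried the widest H3K27ac. Its peaks covered 1.2%, 43.6% and 29.5% of the window of gene body and flanks in H3K27ac replicates 1, 2 and 3. In the same order H3K27me3 covered 1.96%, 1.34% and 3.61%. H3K27ac was therefore high in replicates 2 and 3 and low in the short list of replicate 1, below H3K27me3 replicates 1 to 3 there, and the groups overlapped. Coverage as high as that of replicate 2 was reached by 0.219% of all genes in that list, and 1.46% reached that of replicate 3. The acetylation formed 18 replicated regions, 12 of them in the gene body, and a peak of 6.51 kb in replicate 2, where 2.08% of genes had a peak of at least 5 kb. H3K27me3 formed a single replicated region of 2214 bp over the start, called in all 3 libraries.

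ISL1 peaks covered 7.1% of the Notch1 window in ISL1_26 replicate 1 and 6.24%, 2.21% and 1.36% in ISL1_70 replicates 1 to 3. All 4 libraries had peaks there, with the larger coverage in ISL1_26 replicate 1 and ISL1_70 replicate 1, the longest lists. They formed 4 replicated regions, a number reached by 5.44% of all genes and, among the other 9, by Jag1. Without ISL1_26 replicate 1 or without ISL1_70 replicate 1 Notch1 had 2, and with the 8000 best peaks of each list it had 1. Notch1 and Jag1 were also the members with an ISL1 region in at least 3 libraries, as were 15.5% of all genes. Distances of regions from a gene start are those of their summits. At chr2:26488610-26489981, 14.48 to 14.95 kb into the gene, all 4 libraries had a peak; 7.58% of the 20413 replicated ISL1 regions in the genome were called in all 4. A second intragenic region at chr2:26500542-26501773, about 2.87 to 3.07 kb from the start was called in 3 libraries; 25.3% of replicated ISL1 regions were called in at least 3. Both lay under H3K27ac peaks of 2 libraries. The one nearer the start also overlapped H3K27me3 of 1 library and a peak of H3K4me3 replicate 2. The strongest ISL1_26 peak of the gene, at 16.6 kb, ranked in the top 1.7% of its list. POU4F1 had 1 peak in each library, at 58.84 kb and −12.77 kb from the start, with summits 71.611 kb apart.

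**Figure D2:**
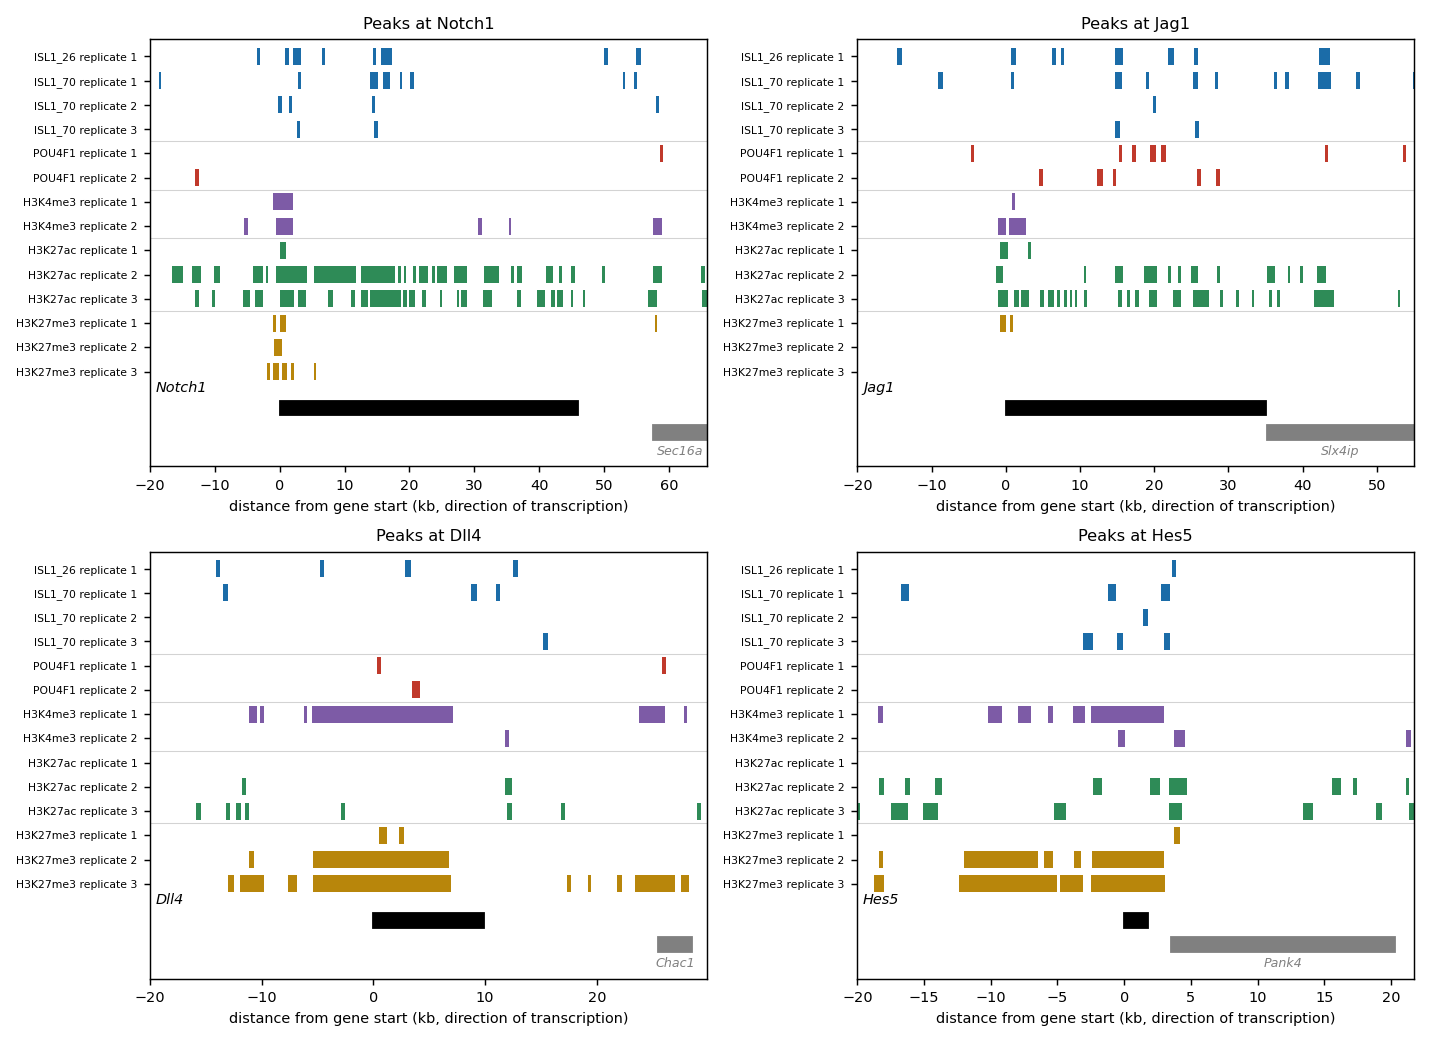
Peaks of each of the 14 libraries (rows, coloured by target) at Notch1, Jag1, Dll4 and Hes5, by distance from the gene start in kb in the direction of transcription; black bars are the gene and grey bars the neighbouring gene. H3K27ac peaks lie along the bodies of Notch1 and Jag1 in replicates 2 and 3, while H3K27me3 spans the starts of Dll4 and Hes5 in its replicates 2 and 3.

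Notch2 (chr3:98013538-98150367) is the longest of the 10 genes at 136.83 kb. H3K27ac covered 0%, 10.4% and 12.1% of its window in replicates 1, 2 and 3, and H3K27me3 covered 0.44%, 0.996% and 3.18%. The acetylation was spread over 13 replicated regions, 12 in the gene body, whereas the summits of the 3 H3K27me3 regions lay 0.18 to 12.71 kb from the start. ISL1 peaks covered 2.4%, 1.71%, 0.379% and 0.576% in the 4 libraries, in the order given above. The 2 replicated ISL1 regions lay 6.33 to 6.47 kb and 30.06 to 30.12 kb into the gene. The second of these overlapped H3K27ac in 2 libraries, and the first overlapped none. POU4F1 replicate 1 had 2 peaks at Notch2 and replicate 2 had none.

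Notch3 (chr17:32120820-32166896), the receptor known best from vascular mural cells, differed from the other receptors in where its H3K27me3 lay. H3K27me3 covered 0.652%, 6.75% and 17.3% of the window and H3K27ac covered 0%, 4.92% and 7.76%, so the values overlapped. Of 7 replicated H3K27me3 regions, 5 lay beyond the far end of the gene, with summits 53.16 to 66.51 kb from the start. H3K27ac marked the start, with the best peaks of replicates 2 and 3 at 1.2 kb and 1.11 kb. H3K27me3 replicate 3 also had a peak within 1 kb of the start. ISL1 covered 2.5%, 1.55%, 0% and 0.423%, with no peak in ISL1_70 replicate 2. The only replicated region straddled the edge of the window, with summits 66.09 to 66.44 kb from the start, and overlapped H3K27me3 of 2 libraries. Its second call was a peak of ISL1_70 replicate 2 outside the window. When summits had to lie in the window, Notch3 dropped out and 6 of the 10 genes had an ISL1 region (45.4% of all genes). No POU4F1 peak was called at Notch3 in either library. None of the 4 mural cell markers had replicated H3K27ac at its start, and their part in the values at Notch3 was not tested.

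Among the ligands, no replicated ISL1 region was found at the 3 Delta-like genes, while Jag1 had 4 and Jag2 had 2. The Delta-like genes and Jag2 have bodies of 5 to 30 kb, where 43.2% of all genes had at least 1. Jag1, with a body of 35.07 kb, falls in the class of 30 to 150 kb, where 56.6% did. Jag1 had 2 regions without ISL1_26 replicate 1 or without ISL1_70 replicate 1. Jag2 had none without ISL1_70 replicate 1, and 1 without ISL1_26 replicate 1 or ISL1_70 replicate 3. With 50 kb on each side, where 62.1% of all genes had at least 1, Dll3 and Dll4 had 1 each. Dll1 (chr17:15367354-15376932), which mediates lateral inhibition, had ISL1 peaks over 7.31%, 1.33%, 0% and 4.35% of its window in the 4 libraries. These came from 6, 1, 0 and 5 peaks that did not overlap between libraries, although 1.65% of genes reached the coverage of ISL1_70 replicate 3 in that list. At the Dll1 start, as at those of Notch1 and Jag2, every library of H3K4me3, H3K27ac and H3K27me3 had a peak. Regions of H3K27ac and of H3K27me3 called in every library lay at these 3 starts and at 1.13% of all gene starts. H3K4me3 replicate 1, the list most like H3K27me3 replicate 2, had a peak at the starts of all 10 genes (19.8% of all genes). At Dll1, H3K27ac covered 3.85%, 8.25% and 5.93% and H3K27me3 covered 4.18%, 7.64% and 14.8%, values that overlapped. No POU4F1 peak was called at Dll1.

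Dll3 (chr7:28293555-28301785), a divergent ligand that acts inside the cell that makes it, lay in a crowded window that held 4 other genes. H3K27me3 covered 0%, 27.3% and 31.3% and H3K27ac covered 3.92%, 13.1% and 16.8%, so H3K27me3 was higher in replicates 2 and 3 and absent in replicate 1. A merged H3K27me3 region of 15806 bp ran over the gene and into its neighbour Selenov, with a single peak of 10.2 kb in replicate 3 and a longest peak of 6.12 kb in replicate 2. H3K4me3 replicate 1 covered 19.9% and H3K4me3 replicate 2 covered 3.52%. Of 5 replicated H3K27ac regions, 1 lay at the Dll3 start and 4 overlapped the neighbours Eid2b and Timm50. ISL1 covered 1.92%, 4.63%, 0% and 0.84%, and the ISL1_70 replicate 1 peaks included the single one over the promoter shown above. No POU4F1 peak was called.

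Dll4 (chr2:119325784-119335666), the ligand known best from endothelium, carried the longest single H3K27me3 peaks of the 10 genes. Its peaks covered 2.19%, 25.3% and 42.7% of the window in replicates 1, 2 and 3, against 0%, 1.99% and 6.33% for H3K27ac. H3K27ac was lower in each numbered library, but H3K27ac replicate 3 exceeded H3K27me3 replicate 1, so the groups overlapped. A single peak of 12.1 kb in replicate 2 and 12.4 kb in replicate 3 ran across the start and the first part of the gene, and peaks of at least 10 kb were found at 2.12% and 3.05% of genes in those lists. Peaks of at least 5 kb were found at Dll3, Dll4 and Hes5 in replicate 2 (7.8% of all genes) and at these and Notch3 in replicate 3 (11.1%). H3K4me3 replicate 1 had a 12.6 kb peak at the same place, and H3K4me3 replicate 2 had none at the start. ISL1 covered 3.59%, 2.67%, 0% and 0.85% with no replicated region. POU4F1 replicate 1 had a peak 0.49 kb from the start, in the top 4.98% of its list and inside H3K27me3 of 3 libraries. The nearest POU4F1 replicate 2 peak was 3.288 kb away and ranked at the 91.2 percentile, near the end of its list.

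Jag1 (chr2:137081451-137116520), which marks prosensory tissue in the ear, was the opposite case. H3K27ac covered 2.01%, 12.3% and 23.0% of its window and H3K27me3 covered 1.61%, 0% and 0%. The means were 12.4% ± 10.5 (SD, n = 3) and 0.538% ± 0.932 (SD, n = 3). Each H3K27ac library was above each H3K27me3 library, which held for 17.4% of all genes and for none of the other 9. An exact two-sided permutation test over the libraries gave p = 0.1 for Jag1, the smallest that 20 splits of 3 against 3 allow, and 0.504 after Benjamini-Hochberg adjustment over 21883 genes; the other 9 genes had exact p of 0.2 to 1. No member had H3K27ac below H3K27me3 in every library (2.40% of genes). Without H3K27ac replicate 1 the count above was 4, with Notch1, Notch2 and Jag2 added, and 52.7% of all genes were above; with replicates 2 and 3 of each mark alone, the same 4 genes and 53.1% of all genes were. Without H3K27me3 replicate 1 the count below was 3, Dll3, Dll4 and Hes5 (13.3%), and without H3K27ac replicate 3 it was 1, Dll4 (4.99%).

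**Figure D3:**
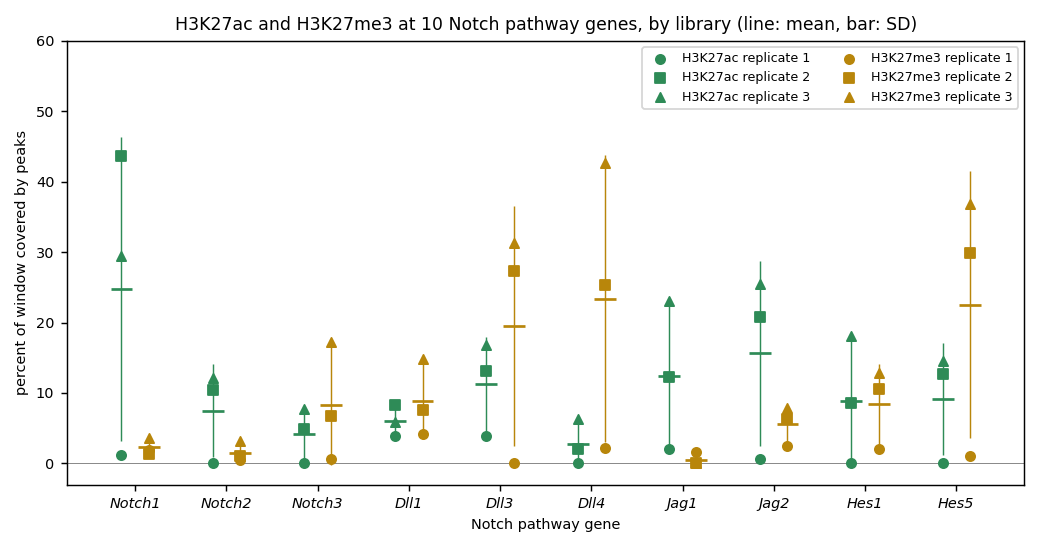
Percent of each gene's window covered by peaks (vertical axis) in the 3 H3K27ac (green) and 3 H3K27me3 (ochre) libraries, for the 10 genes; points are libraries, horizontal lines means and vertical bars the SD. The groups separate at Jag1, where H3K27ac is 2.01% to 23.0% and H3K27me3 0% to 1.61%, and at Dll3, Dll4 and Hes5 replicates 2 and 3 of H3K27me3 lie above every H3K27ac library.

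ISL1 at Jag1 covered 8.3%, 9.15%, 0.585% and 1.59% of the window, from 8, 11, 1 and 2 peaks. In the same lists 1.87%, 0.608%, 38.7% and 21.4% of genes reached that coverage, so it was uncommon in the 2 longest lists and not in the others. The region at chr2:137090456-137091310, about 25.7 kb into the gene, was called in 3 libraries and held peaks in the top 0.4% of ISL1_26 replicate 1 and 1.15% of ISL1_70 replicate 1. The region at chr2:137100768-137101852, 15.25 to 15.53 kb from the start, was also called in 3 libraries. Both lay under H3K27ac of 2 libraries and under no H3K27me3 peak. Another region at chr2:137115176-137115771, 0.89 to 1.26 kb from the start, was the only replicated ISL1 region within 1 kb of the start of any of the 10 genes. Its peaks ranked at the 80.2 percentile of ISL1_26 replicate 1 and the 13.2 percentile of ISL1_70 replicate 1. In these lists 26.4% and 27.6% of all genes had a peak within 1 kb of the start. That region overlapped H3K27ac of 1 library and H3K27me3 of 1 library. The fourth ISL1 region, 42.32 to 43.12 kb away, lay within the neighbour Slx4ip.

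Jag1 also held the most POU4F1 peaks. POU4F1 covered 4.84% of the window with 7 peaks in replicate 1 and 3.88% with 5 peaks in replicate 2, values that 0.503% and 0.402% of genes reached. At least 5 peaks in both lists were found at 1.73% of all genes and at 0.215% of those with bodies of 30 to 150 kb. The peaks of the replicates did not overlap each other, and the nearest summits were 744 bp apart. Of the 12 peaks, 6 overlapped an ISL1 peak (22.3% of all POU4F1 replicate 1 peaks and 11.7% of replicate 2 peaks did). At chr2:137100768-137101852 a peak of each POU4F1 library overlapped the ISL1 region at different ends of it. With POU4F1 replicate 1 left out, so that single peaks of replicate 2 counted, Jag1 and Jag2 had a region shared by the factors (3.93% of all genes), and with replicate 2 left out Jag1 alone had one (9.69%).

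Jag2 (chr12:112907803-112929812), the other Jagged ligand, had peaks of both factors and of both marks. H3K27ac covered 0.648%, 20.8% and 25.4% of its window and H3K27me3 covered 2.52%, 6.29% and 7.9%. H3K27ac was higher in replicates 2 and 3 and lower in replicate 1, so the groups overlapped. H3K27me3 was held in 2 replicated regions at the start, of 3408 bp and 1499 bp. ISL1 covered 6.22%, 2.51%, 1.06% and 1.18%, and the intragenic region at chr12:112920690-112922365 was called in 2 libraries and overlapped a POU4F1 replicate 2 peak. POU4F1 had 3 peaks in each library, covering 2.97% and 2.12%, with the nearest summits 3.093 kb apart.

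The target genes Hes1 and Hes5 encode repressors that hold cells back from neuronal differentiation. Their coverage over the 14 libraries had a Spearman rho of 0.86, a description that rests on shared libraries. This likeness was not particular to the pair: Hes1 had 0.95 with Notch3, 0.87 with Notch2 and 0.86 with Jag2. Hes5 had 0.88 with Notch3. At Hes1 (chr16:30065357-30067796) H3K27ac covered 0%, 8.55% and 18.1% and H3K27me3 covered 2%, 10.6% and 12.8%. These ranges overlapped closely, with an exact permutation p of 1, and 5 replicated H3K27ac and 4 replicated H3K27me3 regions lay around the gene. H3K4me3 replicate 2 had a peak within the gene in the top 9.39% of its list. ISL1 covered 3.99%, 2.68%, 1.2% and 1.01%, with 1 replicated region 16.92 to 17.25 kb from the lower end of the gene. POU4F1 replicate 1 had a peak 3.04 kb from that end, and replicate 2 had none.

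At Hes5 (chr4:154960626-154962372) H3K27me3 covered 1.02%, 29.8% and 36.8% of the window and H3K27ac covered 0%, 12.7% and 14.6%. H3K27me3 was higher in replicates 2 and 3, and 1.92% and 2.18% of genes reached those values in the same lists. Peaks of 5.39 kb and 5.58 kb in replicates 2 and 3 lay over the gene and its start, and another replicated region of 7345 bp lay upstream. H3K4me3 replicate 1 covered 22.3%, with a 5.52 kb peak, and H3K4me3 replicate 2 covered 4.39%. The 4 replicated H3K27ac regions all lay in the flanks, the nearest over the neighbour Pank4. ISL1 covered 0.874%, 4.32%, 0.922% and 3.84%, and its replicated region, 3.2 to 3.24 kb from the start, lay 37 bp from Pank4. ISL1_70 replicates 1 and 3 each had a peak within 1 kb of the Hes5 start, and these did not overlap. No POU4F1 peak was called in either library.

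**Figure D4:**
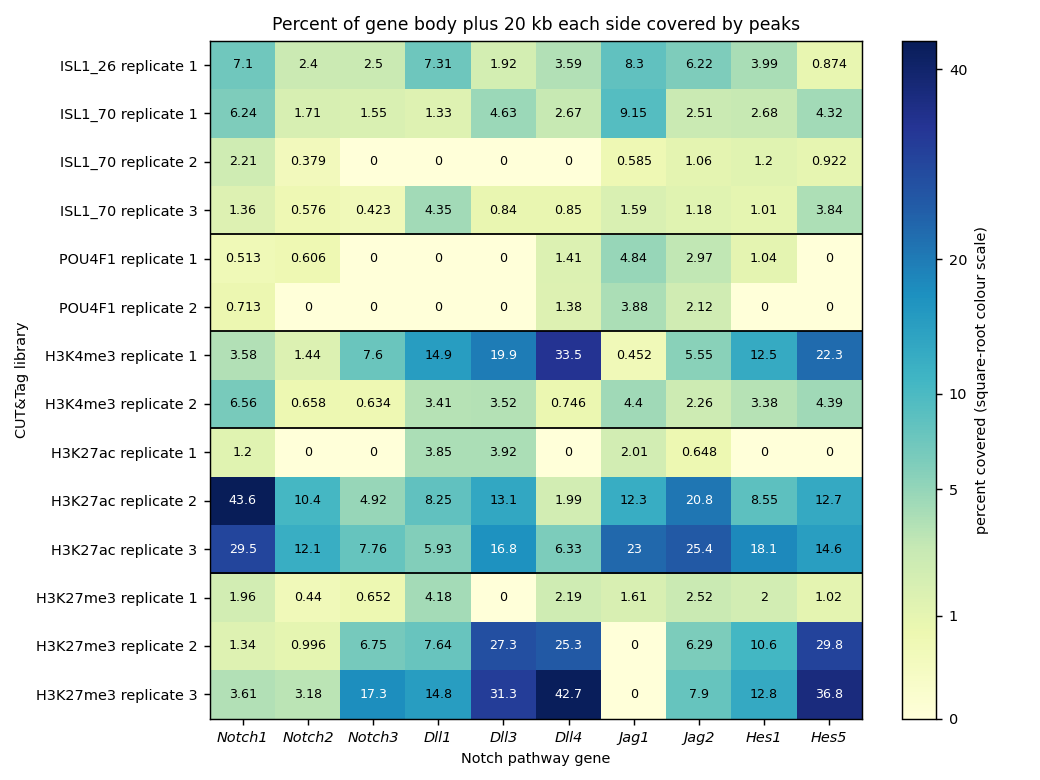
Percent of the window of gene body plus 20 kb each side covered by peaks, for each of the 14 libraries (rows) and 10 genes (columns); colour follows the square root of the value. H3K27ac is highest at Notch1 (43.6% in replicate 2) and H3K27me3 at Dll4 (42.7% in replicate 3), with H3K4me3 replicate 1 following the H3K27me3 rows.

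Taking the genes as a group, the 15 replicated ISL1 regions were split between gene bodies (8), flanks (6) and a start (1). Of these, 12 overlapped an H3K27ac peak of at least 1 library (67.2% of all replicated ISL1 regions) and 9 those of at least 2 (46.6%). H3K27me3 of at least 1 library was found at 6 (16.1%), and an H3K4me3 replicate 2 peak at 4 (12.5%). A POU4F1 peak of replicate 1 overlapped 2 of the 15 (14.4%) and a peak of replicate 2 overlapped 3 (3.48%). All 10 genes had an ISL1 peak in ISL1_26 replicate 1 and in ISL1_70 replicates 1 and 3, where 86.3%, 84.7% and 67.6% of all genes did, and 6 had one in ISL1_70 replicate 2 (51.5%). POU4F1 peaks numbered 16 at 6 genes in replicate 1 (58.0% of all genes had a peak) and 10 at 4 genes in replicate 2 (55.7%). Of these 26 peaks, 9 overlapped an ISL1 peak, at Jag1, Jag2 and Notch2.

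Of 45 other genes of the pathway, 28 had a replicated ISL1 region (45.6% of all genes did) and 44 an H3K27ac region (69.8%). An H3K27me3 region was found at 24 (37.4%) and a POU4F1 region at 5 (2.45%), Hey1, Lfng, Aph1b and Nrarp among them. At the start, 29 of the 45 had replicated H3K27ac without replicated H3K27me3 (38.1% of all genes). H3K27me3 alone was found at 7 (12.6%) and both at 3 (Heyl, Lfng and Dner, 6.42%), shares near those of all genes. Genes named next were chosen after their values were seen. The gamma-secretase genes Ncstn, Aph1a and Psenen had replicated H3K27ac without replicated H3K27me3 at the start, while Psen2 and Aph1b did not. The same held for Adam10 and Adam17, proteases that shed membrane proteins including the receptor, and for the coactivators Maml1, Maml2 and Maml3. Nrarp, which destabilises the Notch nuclear complex and is itself a Notch target, was the only one of these 45 and the 10 with a region shared by ISL1 and POU4F1. That region, chr2:25180035-25180580, lies about 0.45 kb upstream of the start and covers part of the promoter shown above, with peaks in 2 ISL1, 2 POU4F1, 2 H3K27ac and 1 H3K27me3 libraries. Nrarp had 5 replicated ISL1 regions in all, of which chr2:25171282-25173256 was called in all 4 libraries.

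By the rule for naming further genes, 13 of the 45 others had an ISL1 region in at least 3 libraries or a shared one. Of all genes, 15.5% had an ISL1 region in at least 3 libraries and 0.603% a shared one. Leading ones are described. Besides Nrarp, Maml3 had 13 replicated ISL1 regions in a long gene of 418 kb. Dtx1, a ubiquitin ligase, Spen, a partner of RBPJ, and the receptor Notch4 each had a region in all 4 ISL1 libraries (5.19% of all genes). The Dtx1 region lay in the gene. Those of Spen and Notch4 lay in the flanks, centred 80.04 and 40.16 kb from the starts of genes of 70.76 and 24.258 kb. Psen2, a catalytic subunit of gamma-secretase, had 4 regions and the neuronal ligand Dner had 3, each called in at most 3 libraries. Over the 14 libraries, the genes whose window coverage was most like that of Notch1 were Bcat1 (Spearman rho 0.965), Dpysl2 (0.947) and Slc22a23 (0.947). These are descriptions: the points share libraries and list lengths.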

How the data were processed

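The authors' deposited peak lists of 14 libraries were used, 1 list for each library. Per the file headers (peak names), MACS2 called the peaks against a control; the control library and the options are not stated in what was used here. Tools listed in the submitters' processing notes, with no version or role, are Bowtie2, FastQC and SEACR, and the build is mm10. In the deposited files each peak has a display score, a fold enrichment (a ratio over local background), −log10 p-values and −log10 q-values, and a summit offset. All lists end near a −log10 q of 1 (q of 0.1). Fold and q served only to order or filter peaks inside their own list, since the depth of each library is unknown and a deeper library yields more peaks.

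Peaks on the autosomes and on X and Y were assigned to gene bodies plus 20 kb each side from a RefSeq table (GRCm38.p6); 17491 of 21883 genes had a strand. Peaks overlapping by 1 bp were merged within a target, and regions with peaks in at least 2 libraries were called replicated. Ranks are percentiles from the top of a list by −log10 q. H3K27ac and H3K27me3 coverage were compared by exact two-sided permutation with Benjamini-Hochberg adjustment. The genes and lists were chosen with earlier results of these data known. Named genes were all 10 members; up to 8 other pathway genes with a region shared by the factors or an ISL1 region in at least 3 libraries, ranked by libraries and then mean best percentile; and the 3 genes most like the member whose ISL1 region was called in the most libraries. Scripts ran in Python 3.11.15 with numpy 2.4.6, pandas 2.3.3, scipy 1.17.1 and matplotlib 3.10.9 and were tested on simulated data. Same-numbered H3K27ac and H3K27me3 libraries were checked for pairing, and other windows, thresholds and left-out libraries were tried. Values of some single genes are left out of the text.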

Additional observations from a re-analysis of the deposited data

How the results depend on the processing

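The 11 counts of genes were recomputed under 128 alternatives; 91 stayed within 1.5 times the reported count and 37 moved, of which 20 were among the 50 that left out 1 library. The share of all genes in the same setting follows each count in brackets. With the gene body alone, 4 genes had a replicated ISL1 region (27.4%) and 1 had H3K27ac below H3K27me3 in every library (3.13%). With the 8000 best peaks of each list the counts were 2 for ISL1 (11.4%), 2 for H3K4me3 (6.07%) and 5 for H3K27ac (33.2%). In that setting 2 genes had H3K27ac below H3K27me3 in every library (7.57%). At their starts, 0 genes had H3K27ac alone (17.3%), 5 had H3K27me3 alone (14%) and 2 had both marks (0.868%). Requiring a region in every library gave 1 for ISL1 (5.19%), 5 for H3K27ac (33.6%), 1 for H3K27ac alone at the start (18.9%) and 3 for both marks (1.13%). Dividing coverage by the library mean gave 1 gene below (10.1%). With replicates 2 and 3 only, an alternative chosen after seeing the data, 4 genes were above (53.1%) and 3 below (13.3%). Same-numbered H3K27ac and H3K27me3 libraries had correlations of their deviations of 0.019, −0.033 and 0.085. Those with different numbers had −0.059 to 0.027. Because the marks differ, such values cannot show whether a number stands for a shared dissection, and the labels do not say. With the replicate block 1 gene was above (24.9% of all genes) and 3 were below (Notch3, Dll4 and Hes5, 10.9%). Leaving out 1 library gave 3 to 6 genes for ISL1 (24.5% to 40.7%) and 4 to 6 for POU4F1 (55.7% to 58%). H3K4me3 gave 10 in each case (40% and 67.7%). The counts were 4 to 10 for H3K27ac (34.5% to 68.6%) and 5 to 9 for H3K27me3 (18.8% to 35.9%). Shared regions were found at 0 to 2 (0.384% to 9.69%). From 1 to 4 genes were above (17.5% to 52.7%) and 0 to 3 below (2.4% to 13.3%). At the start, 1 to 4 had H3K27ac alone (17.9% to 41.5%), 1 to 6 H3K27me3 alone (6.33% to 16.8%) and 2 to 6 both (2.24% to 5.87%). Where a target had 2 libraries, the one left supplied its own peaks. Other causes of these shifts were not tested. Read depth is unknown, so genes without a peak cannot be separated from genes in shallow libraries.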
